A study of Mus musculus with 80 samples.

Results

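Transcription in mouse liver 1 h after injection of 1.7 kBq of astatine-211 (211At) was compared with that of control liver. The comparison was chosen by sample labels alone and holds 6 of the 80 arrays in the series, 3 of exposed and 3 of control mice, each array representing the liver of 1 mouse. 211At is a halogen radionuclide that decays by emitting α particles, which deposit their energy over a few cell diameters, and it was given here as the free, uncoupled nuclide. All mice were adult females of the BALB/c nude strain, which carries the Foxn1nu allele, and they lack a functional thymus and therefore have few mature T cells. The 3 exposed mice received 1.7 kBq 211At in physiological saline through the tail vein and were killed 1 h later. The 3 control mice received no activity and, per the study's methods, were mock-treated with phosphate-buffered saline and killed after 24 h. Exposed and control mice thus differed in the time from injection to killing as well as in the activity received, and these cannot be told apart. No source used here gives the hour of the day at which each group was killed.

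The series covers the liver and 4 other tissues (spleen, lungs, kidney cortex and kidney medulla). In the liver it also holds 2 mice 1 h after 105 kBq, 3 mice 6 h after 1.7 kBq, 2 mice 6 h after 7.5 kBq and 3 mice 7 days after 1.7 kBq, which gives 16 liver arrays.

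The liver clears nutrients, hormones and foreign compounds from the blood and does much of this in a daily rhythm. In hepatocytes, the transcription factors CLOCK and ARNTL (BMAL1) drive their own repressors, the Period and Cryptochrome proteins, together with output factors such as DBP and TEF. Glucocorticoids, fasting signals and body temperature act on many of the same genes. Ionising radiation is best known in expression studies for inducing targets of the p53 protein and for changing genes of DNA repair and immunity.

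Signals were quantile-normalised intensities from Illumina MouseRef-8 bead arrays and are given on the log2 scale. Of 25697 probes, 17816 were kept because at least 2 of the 16 liver arrays lay above a background cutoff of 6.88 on that scale. The label of the tissue was checked on 9 hepatocyte markers. Their summed linear signal was 115734 to 126519 in exposed and 118987 to 128423 in control livers, against a median of 7046 in arrays of the other tissues. Arrays correlated over all 25697 probes with r = 0.986 to 0.989 among exposed livers, 0.984 to 0.992 among control livers and 0.974 to 0.983 between the groups. This is a description across probes that are not independent of each other. Control replicate 1 stood apart in its neutrophil markers (8 genes), with a summed signal of 17291 against 2077 and 2843 in the other control livers and 1685 to 3284 in exposed livers. The number of interferon genes that fell and the medians of macrophage and neutrophil markers are therefore also given without that array.

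At a Benjamini-Hochberg adjusted p under 0.01 in limma and a change of at least 1.5-fold, 223 transcripts (probes), or 1.25% of those tested, were significantly regulated. Of these, 137 were upregulated, or 0.769% of the probes tested, and 86 were downregulated, or 0.483%. At least 2-fold changes were found in 61 of the upregulated and 22 of the downregulated transcripts, and at least 4-fold changes in 11 and 2. The median change over all tested probes was 0.00 on the log2 scale. Of the 223 transcripts, 205 carried a gene symbol, which gave 113 upregulated and 69 downregulated genes. With control replicate 2 left out the number of regulated transcripts was 119, and without exposed replicate 1 it was 105. When only these 6 arrays were fitted it was 136, and with background subtracted it was 128. Downregulated transcripts numbered 46 without control replicate 3.

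The largest increase among the significantly regulated genes was that of Mfsd2a, which encodes a membrane transporter of lysophospholipids carrying long polyunsaturated fatty acids. Its log2 signal was 8.69, 8.89 and 8.78 in control livers and 12.10, 11.97 and 11.99 in exposed livers. The groups were more than 3 log2 units apart and varied little within themselves. The change was 3.23 ± 0.13 on the log2 scale, or 9.41-fold, with a limma adjusted p of 1.04e-09. The SE is that of the limma fit of all 16 liver arrays, with 3 arrays in each group compared. Alas1, which catalyses the first and limiting step in making heme, had signals of 11.00, 10.83 and 10.64 in control and 13.77, 13.43 and 13.60 in exposed livers. It was 6.86-fold higher (limma adjusted p = 4.83e-08). No other of the 10 measured genes of heme synthesis and breakdown was significantly regulated, against 1.25% of all probes. Fech, which inserts iron into protoporphyrin, changed by -0.37 and Cpox by 0.31, with limma adjusted p of 0.0971 and 0.162.

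Coq10b, a mitochondrial coenzyme Q-binding protein, rose 5.57-fold, from 7.81 to 8.16 in control livers to 10.24 to 10.61 in exposed livers (limma adjusted p = 2.23e-07). Both of its regulated probes, of 3 kept, were higher. St3gal5, the sialyltransferase that makes the ganglioside GM3, had signals of 7.97, 8.41 and 8.46 in control livers and 10.74, 10.07 and 10.01 in exposed livers, and rose 3.99-fold (limma adjusted p = 5.97e-05). Lowest exposed and highest control values were more than 1 log2 unit apart for each of these genes.

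**Figure D1:**
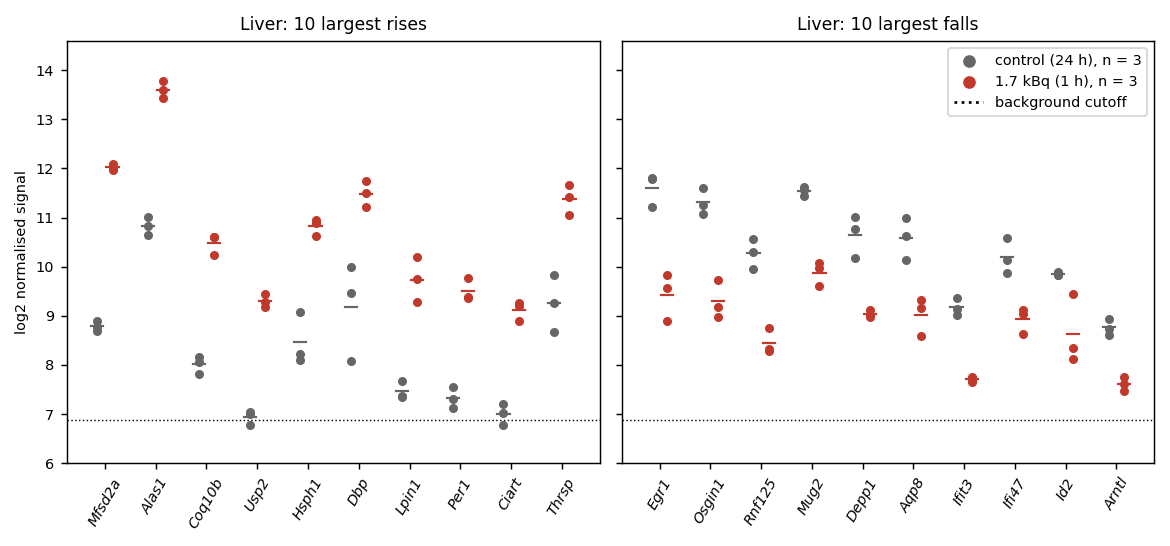
Log2 normalised signal of the 10 significantly regulated genes with the largest rise (left) and the 10 with the largest fall (right) among those whose groups do not overlap, with 1 point per array, 3 control (grey) and 3 exposed arrays (red) and short bars for the means. The dotted line is the background cutoff of 6.88. The groups do not overlap for any of the 20 genes, which the choice of these genes required, and the control livers spread most for Dbp, from 8.07 to 9.999.

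Among 18 measured genes of the circadian clock, 7 rose and 1 fell, against 0.769% and 0.483% of all probes. The list median was 0.46. Among the repressors, Per1 had signals of 7.11, 7.54 and 7.30 in control and 9.77, 9.37 and 9.38 in exposed livers. It rose 4.55-fold (limma adjusted p = 2.75e-06). Ciart, which encodes a repressor of CLOCK and ARNTL, went from 7.20, 6.78 and 7.01 to 9.27, 8.90 and 9.20, a 4.36-fold rise (limma adjusted p = 4.34e-06). In control livers this gene lay at the background cutoff, so that the fold change is compressed. After subtraction of background, its log2 change was 3.74 instead of 2.13. Per2 rose 3.19-fold (limma adjusted p = 0.000153), with all control signals between 8.15 and 8.78 and all exposed signals between 9.90 and 10.26. It was called on 2 of its 3 kept probes.

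Output genes of the clock rose as well. Dbp, a transcription factor of the PAR bZIP family, had signals of 8.07, 9.46 and 9.999 in control livers and 11.21, 11.73 and 11.50 in exposed livers. Controls differed by nearly 2 log2 units among themselves, and all 3 lay below the exposed livers. The change was 2.30 ± 0.35 (limma adjusted p = 0.00144), where the SE is pooled over all liver groups. The SD was 0.995 among these controls and 0.26 among the exposed livers. The call ended when background was subtracted, when only the 6 arrays were fitted and with a robust variance trend. Tef, of the same family, rose 2.36-fold (limma adjusted p = 0.000406). The ubiquitin-specific protease gene Usp2, whose expression follows the clock, rose 5.12-fold from signals of 6.78 to 7.05, at the background cutoff, to 9.18 to 9.44 (limma adjusted p = 1.38e-05), on 1 of its 3 kept probes.

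Arntl, the activator that pairs with CLOCK, moved the other way. Its signal was 8.94, 8.61 and 8.73 in control and 7.60, 7.47 and 7.76 in exposed livers, a 2.22-fold fall (limma adjusted p = 6.40e-05). Its partner Clock changed by -0.12, and Nr1d1, which encodes the repressor REV-ERBα of Arntl, by -0.16. Neither passed the test. Per3 (0.40), Cry2 (0.48) and Nr1d2 (0.44) were higher without passing it, and Bhlhe40 changed by 0.70 (limma adjusted p = 0.0268). When only the 6 arrays were fitted, 4 clock genes rose, and with background subtracted the fall of Arntl was no longer called.

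The CLOCK and ARNTL pair binds the E-box CACGTG, which reads alike on both strands. To show where this motif lies, the 250 bases before the RefSeq start site (build GRCm38.p6) were searched for those letters. Of 27025 genes with such a sequence, 6.86% held it. It was found in 3 of the 7 regulated clock genes with a sequence (Per1, Tef and Ciart) and in 0 of the 9 that were not regulated. Ciart held 3 copies within 116 bases of its start. The D-box TTATGNAA, the motif of DBP and TEF, was held on either strand by 3.63% of all genes. It was found in 2 of the 7 regulated clock genes (Per1 and Noct) and in 1 of the 9 others (Per3). The RORE, the motif of REV-ERB and ROR receptors, searched as AANTA followed by GGTCA on both strands, was found in 0.211% of all genes and in 0 of the 7 regulated and 0 of the 9 other clock genes. The stretches around the E-boxes follow 5′ to 3′ in the direction of the gene, with the motif in capitals, from chr3:95882245-95882366 (minus strand) for Ciart and chr11:69098761-69098810 (plus strand) for Per1.
Ciart: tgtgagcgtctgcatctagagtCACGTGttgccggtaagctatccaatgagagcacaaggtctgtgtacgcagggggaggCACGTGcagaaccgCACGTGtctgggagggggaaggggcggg
Per1: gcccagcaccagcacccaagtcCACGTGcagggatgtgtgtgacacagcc
A match describes these letters only and is not evidence of binding in these livers.

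Of 13 measured genes that glucocorticoids induce, 4 rose and none fell, against 0.769% and 0.483% of all probes. The list median was 0.65. Fkbp5, a co-chaperone of the glucocorticoid receptor, had signals of 7.95, 8.12 and 8.19 in control livers and 10.45, 9.49 and 9.01 in exposed livers. The exposed livers spread over more than 1 log2 unit, and none overlapped the controls. The rise was 2.96-fold (limma adjusted p = 0.00362). Tsc22d3, which encodes the leucine zipper protein GILZ, rose 3.28-fold, from 10.13, 10.01 and 10.51 to 12.14, 11.69 and 11.97 (limma adjusted p = 0.0029). It was called on 1 of its 2 kept probes. Errfi1, an inhibitor of the epidermal growth factor receptor, rose 2.02-fold (limma adjusted p = 4.64e-05). Angptl4, a secreted inhibitor of lipoprotein lipase, rose 3.13-fold (limma adjusted p = 0.000235). The call of Fkbp5 ended with any 1 control array left out (highest adjusted p 0.0164), and that of Tsc22d3 on leaving out exposed array 1 or 3 or control array 1 or 2 (highest 0.0204). Each kept its direction, and with control replicate 1 or control replicate 2 left out 2 genes of the list rose, as with a robust variance trend. The receptor's response element, searched as GNACA and TGTNC with 3 bases between them, on both strands of the same 250 bases, was found in 0.44% of all genes, in 0 of the 3 regulated genes with a sequence and in 2 of the 8 not called.

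The heat shock and protein folding list holds cytosolic chaperones and co-chaperones, and also Hsf2 and the chaperonins Hspd1 and Hspe1. Of its 19 measured genes, 7 rose and none fell, against 0.769% and 0.483% of all probes. All 19 had a higher mean in exposed livers, and the median change was 0.51. Hsph1, the HSP110 protein that recharges HSP70 chaperones, rose from 9.07, 8.10 and 8.22 to 10.89, 10.95 and 10.61, or 5.11-fold (limma adjusted p = 0.000237). Hspa8, the constitutive HSP70, rose 2.07-fold, from 13.09 to 13.50 in controls to 14.19 to 14.48 in exposed livers (limma adjusted p = 0.000134). It was called on 1 of its 2 kept probes. Chordc1 (2.39-fold), Stip1 (2.00-fold) and Dnajb1 (1.91-fold), co-chaperones of HSP90 and HSP70, also rose, with limma adjusted p of 0.000128, 0.000457 and 1.78e-05. Bag3 and Ahsa1 rose 1.57-fold and 1.65-fold. The call of Ahsa1 ended on leaving out exposed array 1 or 2 or control array 2 or 3 (highest adjusted p 0.0301). The heat shock element, searched as GAA, TTC and GAA with 2 bases between each, on both strands, was found in 0.514% of all genes, in 0 of the 6 regulated genes with a sequence and in 2 of the 11 not called. No match says only that these letters are not in this window.

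The inducible Hspa1a stayed near the background, at 6.65 to 6.69 in control and 6.81 to 6.93 in exposed livers (limma adjusted p = 0.119). Hspb1 changed by 1.30 with an adjusted p of 0.0157 in limma, and the chaperonins Hspd1 and Hspe1 by 0.20 and 0.13. The RNA-binding proteins Cirbp and Rbm3, which cells make more of in the cold, had signals that were lower in exposed livers. Cirbp was at 8.76, 8.81 and 8.60 in control and 8.31, 7.72 and 7.81 in exposed livers, with a change of -0.78 (limma adjusted p = 0.0286). The groups did not overlap for either gene, as was the case for 10.1% of all probes in this direction, and neither was called. In the endoplasmic reticulum, Herpud1 was the only regulated gene of 19 measured stress genes, against 1.25% of all probes. It rose by 1.22 on the log2 scale (limma adjusted p = 0.000518). Creld2 changed by 1.36 and Chac1 by 0.96 without passing the test.

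**Figure D2:**
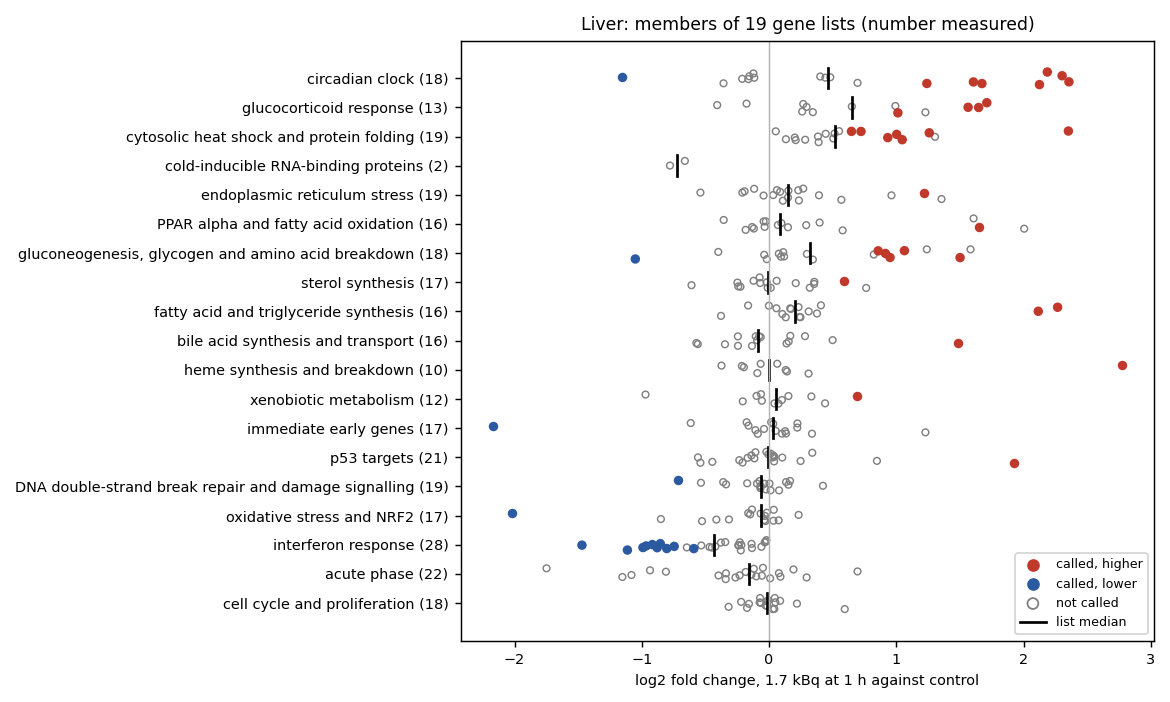
Log2 fold changes of the members of 19 gene lists, with 1 point per measured gene, filled where the transcript was significantly regulated (red higher, blue lower), and a black bar for each list median. The medians of the clock, glucocorticoid and heat shock lists lie at 0.46, 0.65 and 0.51, and that of the interferon list lies at -0.44.

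Genes of glucose output were partly higher. Of 18 genes of gluconeogenesis, glycogen and amino acid breakdown, 5 rose and 1 fell, against 0.769% and 0.483% of all probes. The list median was 0.32. G6pc, the enzyme that releases free glucose from the liver cell, had signals of 11.40, 11.40 and 11.19 in control and 12.94, 13.04 and 12.52 in exposed livers, a 2.83-fold rise (limma adjusted p = 0.000149). Foxo1, a transcription factor of the fasting response, rose 2.09-fold (limma adjusted p = 0.00042), and Gpt2, a mitochondrial alanine aminotransferase, 1.81-fold (limma adjusted p = 0.000381). Pck1, which makes phosphoenolpyruvate, changed by 1.24 with an adjusted p of 0.01005 in limma, just above the threshold. Ppargc1a rose 1.89-fold and Got1 1.93-fold, and Ppp1r3c, which targets phosphatase 1 to glycogen, fell by 1.05 on the log2 scale. The calls of Got1 and Ppp1r3c ended without any 1 of the 6 arrays (highest adjusted p 0.0465 and 0.0226), and that of Ppargc1a once exposed array 1 or 3 was left out, or control array 1 or 2 (highest 0.0282). In the list, 3 genes rose with background subtracted, with only the 6 arrays fitted, and once exposed array 1 or 3 was left out, or control array 1 or 2.

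In lipid metabolism, Lpin1 and Thrsp stood out. Lpin1 encodes a phosphatidate phosphatase that also coactivates genes of fatty acid oxidation. Its signal was 7.36, 7.37 and 7.68 in control and 10.19, 9.74 and 9.28 in exposed livers, a 4.82-fold rise (limma adjusted p = 0.00144). Lpin1 was called on 1 of its 2 kept probes. Thrsp, a regulator of lipogenesis that responds to thyroid hormone, rose 4.33-fold, from 8.66, 9.26 and 9.83 to 11.04, 11.66 and 11.41 (limma adjusted p = 0.0017). None of the other 14 measured genes of fatty acid and triglyceride synthesis was regulated, against 1.25% of all probes. The call of Lpin1 ended without exposed replicate 1 (adjusted p 0.0114) and that of Thrsp without control replicate 2 (adjusted p 0.01004).

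Among 16 measured targets of PPARα, a receptor that turns on fat burning in fasting, Angptl4 was the only one regulated. The share of all probes called was 1.25%, for this list and for those that follow. Cyp4a14 had signals of 7.04, 8.27 and 8.23 in control and 10.35, 9.77 and 9.44 in exposed livers, a difference of 2.01 ± 0.50 that did not pass (limma adjusted p = 0.0306). Acot1 differed by 1.61 (limma adjusted p = 0.0125). Cyp7a1, the rate-limiting enzyme of bile acid synthesis, rose 2.80-fold (limma adjusted p = 0.00841), the only regulated gene of 16 in bile acid synthesis and transport. Control replicate 1 lay at 9.91 and the other controls at 11.13 and 11.37, against 11.94 to 12.51 in exposed livers. The call ended without any 1 exposed array or without control replicate 1 or 2 (highest adjusted p 0.0428). In sterol synthesis, Hsd17b7 rose by 0.59 on the log2 scale, the only one of 17 genes, and its call ended with any 1 array other than exposed replicate 2 left out (highest adjusted p 0.0259). Insig1, which holds back sterol synthesis, changed by -0.07 (limma adjusted p = 0.87). Nr1i2, the xenobiotic receptor PXR, rose 1.61-fold (limma adjusted p = 0.000859), and none of the other 11 genes of xenobiotic metabolism was regulated.

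Kcnk5, a potassium channel, rose 2.85-fold, from signals of 8.32 to 8.70 to 9.63 to 10.16 (limma adjusted p = 0.00233), and Slc5a6, a transporter of biotin and pantothenate, rose 1.97-fold (limma adjusted p = 0.00144). Of the 3 kept probes of Kcnk5, 2 were called higher. Lgals4, a galectin, differed by 0.82 (limma adjusted p = 0.0975). The call of Kcnk5 ended once exposed array 2 or 3 was left out, or control array 2 (highest adjusted p 0.0145), and that of Slc5a6 once exposed array 1 was left out, or control array 2 (highest 0.0111).

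Osgin1, which restrains cell growth under oxidative stress, had signals of 11.59, 11.26 and 11.08 in control and 8.97, 9.73 and 9.17 in exposed livers, a 4.05-fold fall (limma adjusted p = 5.08e-05). It was the only regulated gene of the 17 measured in the NRF2 and oxidative stress list, against 1.25% of all probes. Rnf125, a ubiquitin ligase, fell 3.53-fold, from 9.96, 10.31 and 10.56 to 8.32, 8.29 and 8.75 (limma adjusted p = 3.47e-05), and 2 of its 3 kept probes were called lower. Depp1, a target of FOXO factors linked to autophagy, fell 3.08-fold, from 11.02, 10.17 and 10.76 to 8.97, 9.01 and 9.11 (limma adjusted p = 0.000429). For all of these genes the groups lay at least 1 log2 unit apart.

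Egr1, a zinc finger transcription factor of the immediate early class, fell 4.51-fold, from 11.81, 11.78 and 11.22 to 9.56, 8.90 and 9.83 (limma adjusted p = 0.00645). It was the only regulated gene of 17 in its class, against 1.25% of all probes. Fos changed by -0.18 and Jun by 0.10, and Dusp1 differed by 1.23 with overlapping groups (limma adjusted p = 0.0425). Mug2, the murinoglobulin that traps proteases in blood, fell 3.16-fold (limma adjusted p = 0.00852), on 1 of its 3 kept probes. The calls of Egr1 and Mug2 ended without any 1 of the 6 arrays (highest adjusted p 0.0327 and 0.0492), with the direction kept. Aqp8, a water channel of the bile canaliculus, fell 2.95-fold. Id2, an inhibitor of basic helix-loop-helix factors, fell by 1.22 on the log2 scale. Exposed replicate 2 lay at 9.44 for Id2, close to the controls at 9.83 to 9.89, and the other exposed livers at 8.11 and 8.34. The call of Id2 ended without any 1 array other than exposed replicate 2 (highest adjusted p 0.0533), and that of Aqp8 once exposed array 1 or 2 was left out, or control array 2 or 3 (highest 0.0246).

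Genes that respond to DNA damage were mostly not called, as were most probes of the array, of which 1.25% were called. Of 21 measured p53 targets, 1 rose and none fell, against 0.769% and 0.483% of all probes. The median change was -0.01. Plk3, a stress-responsive kinase, was the one that rose, 3.80-fold, from 8.86, 8.46 and 8.51 to 11.02, 10.04 and 10.55 (limma adjusted p = 0.000338). The p53 targets best known from irradiated cells were not regulated: Cdkn1a, the p21 inhibitor of the cell cycle, differed by 0.34, Mdm2, the ubiquitin ligase of p53, by 0.04 and Bbc3, which promotes apoptosis, by -0.56 (limma adjusted p of 0.643, 0.846 and 0.0474). Cdkn1a was at 7.86, 7.09 and 7.03 in control and 8.20, 7.18 and 7.61 in exposed livers, so that the groups overlapped. Mdm2 varied by less than 0.3 log2 units over all 6 arrays.

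Of 19 measured genes that repair or signal DNA double-strand breaks, 1 fell and none rose, against 0.483% and 0.769% of all probes. The list median was -0.07. The gene that fell was Mad2l2, which encodes the REV7 subunit of translesion polymerase and shieldin. It went from 9.01, 8.72 and 8.45 to 7.99, 7.95 and 8.08 (limma adjusted p = 0.00349), and its call ended once exposed array 1 or 2 was left out, or control array 1 or 2 (highest adjusted p 0.0195). The histone variant gene H2ax differed by 0.42 with a limma adjusted p of 0.00556, below the fold threshold. Of 18 genes of cell cycle and proliferation none was called, against 1.25% of all probes. Ccnd1, the cyclin of early G1, differed by 0.59 and Mcm6, of the replicative helicase, by -0.32 (limma adjusted p of 0.383 and 0.203).

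Interferon-stimulated genes were lower. All 28 measured genes had a lower mean in exposed livers, with a median of -0.44 against 0.00 over all probes. Of these genes, 10 fell significantly and none rose, against 0.483% and 0.769% of all probes. Ifit3, an antiviral protein that binds viral RNA with its relatives, had signals of 9.37, 9.03 and 9.14 in control and 7.66, 7.75 and 7.71 in exposed livers. The exposed values lay within 0.1 of each other and more than 1 log2 unit below the lowest control, a 2.77-fold fall (limma adjusted p = 8.85e-05). Its other kept probes were lower without being called. The guanylate-binding proteins Gbp3 and Gbp2 fell 2.16-fold and 1.89-fold (limma adjusted p of 0.00144 and 0.0012), and the oligoadenylate synthetase-like Oasl2 and the tetratricopeptide protein Ifit2 1.99-fold and 1.95-fold (limma adjusted p of 0.00197 and 0.000661). Gbp2 was called on 1 of its 3 kept probes and Oasl2 on 1 of 2. Ifi47, an immunity-related GTPase outside the list, fell 2.42-fold (limma adjusted p = 0.000457). The number of list members that fell was 6 without control replicate 1, 6 without control replicate 3, 4 without exposed replicate 1, 5 with background subtracted and 2 when only these 6 arrays were fitted.

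Factors activated by interferon bind the interferon-stimulated response element, searched here as GAAA and GAAA with 2 bases between them, on both strands. The same stretch of promoter held it in 3.46% of all genes. It was present in 5 of 9 interferon list members that fell and have a sequence (Ifit3, Isg15, Rsad2, Gbp2 and Gbp3) and in 5 of 12 that were not called. The stretches of Ifit3 (chr19:34583351-34583438, plus strand) and Gbp3 (chr3:142559977-142560036, plus strand) show it with the capitals marking matches, which read TTTC and TTTC where the motif lies on the opposite strand. In Gbp3 a pair of matches overlap.
Ifit3: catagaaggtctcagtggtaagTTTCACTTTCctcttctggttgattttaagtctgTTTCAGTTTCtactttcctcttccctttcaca
Gbp3: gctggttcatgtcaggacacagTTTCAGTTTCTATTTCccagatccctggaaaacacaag

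Markers of macrophages and neutrophils had lower means in exposed livers. All 8 measured macrophage and Kupffer cell markers were lower, with a median of -0.62 and none called, against 1.25% of all probes. Their sum (9 markers on the array) was 4252 to 5568 in exposed livers against 6382, 6852 and, in control replicate 1, 11746. Vsig4, a receptor of resident macrophages, changed by -0.81 (limma adjusted p = 0.0514) and C1qc, of the complement, by -0.87 (limma adjusted p = 0.026). All 8 neutrophil markers were lower too, with a median of -0.92 and none called, and the groups overlapped in their sum. Without control replicate 1 the medians were -0.30 for macrophages and -0.21 for neutrophils, while that of 8 endothelial markers was -0.01 over all 6 arrays. Of 7 measured T and NK cell markers 3 were higher and 4 lower (median -0.02), and of 4 B and plasma cell markers 2 were higher and 2 lower (median -0.11), with none called. In RNA from whole tissue, fewer cells of a type and less RNA per cell cannot be told apart, and the part of immune cells in the lower interferon genes was not tested.

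**Figure D3:**
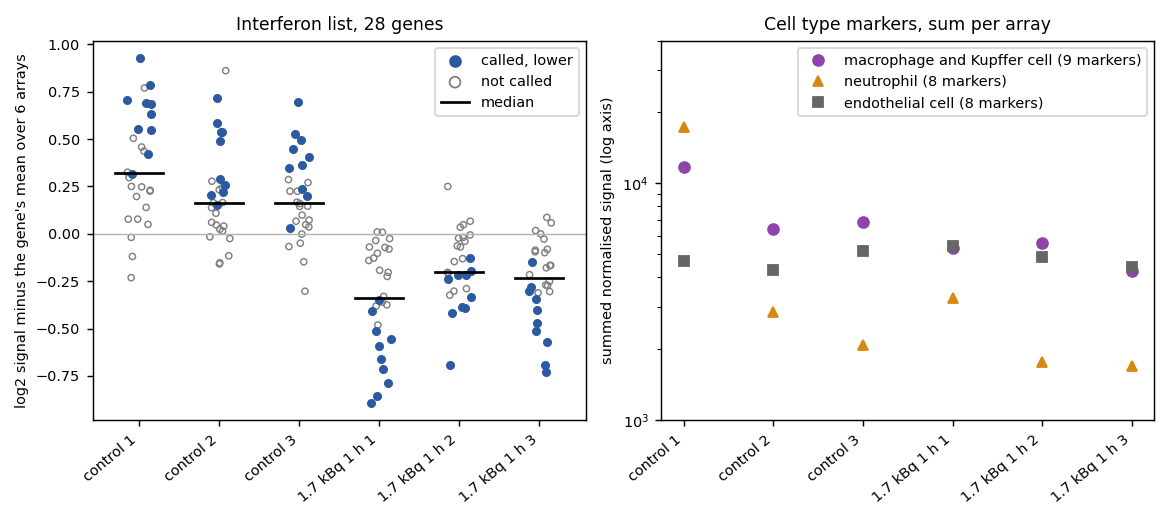
Left, log2 signal of the 28 measured interferon genes on each array minus the mean of the gene over the 6 arrays, filled where the transcript fell significantly, with black bars for medians. Right, summed linear signal of macrophage, neutrophil and endothelial markers on each array (log axis), where control 1 reaches 17291 for neutrophils and 11746 for macrophages.

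Genes of the acute phase gave no calls among 22 measured, against 1.25% of all probes called. Fgb, a chain of fibrinogen, was at 10.27, 9.88 and 10.35 in control livers and at 8.03, 9.70 and 7.52 in exposed livers. Exposed replicate 2 lay close to the controls, and the difference of -1.75 ± 0.46 did not pass (limma adjusted p = 0.0389). Without that replicate the difference was -2.39 and Fgb was called lower (limma adjusted p = 0.00278). The probe of Alb, serum albumin, showed the same exposed replicate apart, at 12.35 against 10.30 and 10.07, with controls at 11.83 to 12.42.

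To place these changes among the tissues, the change in the liver was tested against the mean change in kidney cortex, kidney medulla, lungs and spleen for the same activity and time. The difference was significant for 69 transcripts, or 0.387%, of which 39 were higher and 30 lower in the liver. Among the transcripts regulated in the liver, 36 of the 137 that rose and 20 of the 86 that fell also differed from the other tissues. The same liver arrays enter both tests, so that transcripts chosen for a large change in the liver tend to differ here as well. Mfsd2a changed by 1.16 in kidney cortex, 0.90 in kidney medulla, 0.92 in lungs and -0.11 in spleen, and its liver excess was 2.52 ± 0.43 (SE, limma adjusted p = 0.00017). For Alas1 the excess was 2.28 (limma adjusted p = 6.00e-05) and for St3gal5 2.05 (limma adjusted p = 0.00274). Osgin1, Depp1 and Rnf125 were lower in the liver relative to the other tissues by -2.30, -1.81 and -1.80 (limma adjusted p of 1.44e-10, 8.23e-05 and 5.16e-09), and the other called probe of Rnf125 by -1.88 (limma adjusted p = 4.72e-05). The changes of these 4 probes in those tissues lay between -0.20 and 0.51.

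Clock genes divided in this test. Dbp, Usp2 and Ciart rose more in the liver, by 1.75, 1.53 and 1.47 (limma adjusted p of 0.00218, 0.000222 and 5.36e-05). Per1 rose by 2.19 in the liver and changed by 2.09, 2.03, 1.68 and 1.41 in the other tissues, a difference of 0.38 ± 0.27 that did not pass (limma adjusted p = 0.602). Hsph1 (0.60), Tsc22d3 (-0.42), Fkbp5 (-0.04) and Ifit3 (-0.40) did not differ significantly between liver and other tissues either, whereas Hspa8 did, by 0.78 (limma adjusted p = 1.50e-05). Arrays of different tissues can come from the same mouse, which the labels do not give, so that the liver and other tissues are not independent. Without exposed replicate 1, 39 transcripts differed between liver and other tissues, and 16 instead of 30 were lower in the liver without control replicate 3.

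**Figure D4:**
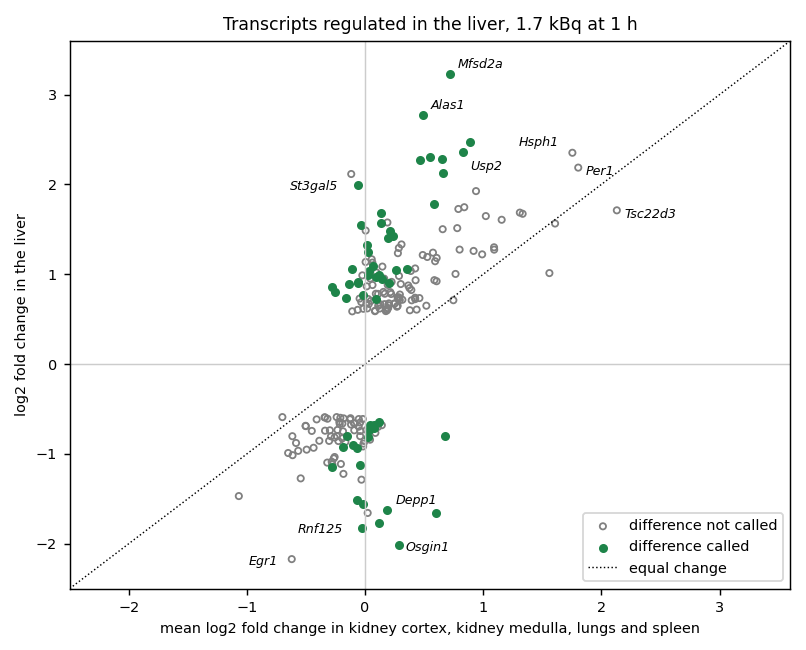
Log2 fold change in the liver (vertical axis) against the mean log2 fold change in 4 other tissues (horizontal axis) for the 223 transcripts regulated in the liver 1 h after 1.7 kBq. Filled points are the 56 transcripts whose difference between liver and other tissues was significant, and the dotted line marks equal change. Mfsd2a and Alas1 lie far above the line, and Per1 and Tsc22d3 close to it.

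The livers 1 h after 1.7 kBq were further set against those of mice given 105 kBq and killed at the same time. In this direct comparison no transcript was higher and 1 was lower (0.00561% of probes, 1728 with an unadjusted p under 0.05 in limma). That probe, ILMN_1255416, carries no gene name here. It was at 8.44, 8.74 and 8.33 after 1.7 kBq, at 9.94 and 9.85 after 105 kBq and at 10.04, 9.51 and 9.83 in controls, and the livers after 1.7 kBq thus stood apart from both. The difference between activities was -1.39 (limma adjusted p = 0.00651). It was no longer called without exposed replicate 1 or 3 or without either 105 kBq array, which left 0 calls, and 2 transcripts were called without exposed replicate 2. Mfsd2a differed by 0.31 between the activities (95% interval 0.02 to 0.61), Alas1 by 0.07 (-0.28 to 0.41), Per1 by -0.35 (-0.73 to 0.03) and Hsph1 by 0.14 (-0.54 to 0.82). Ifit3 was lower after 1.7 kBq by -0.65 (-1.03 to -0.28), with a limma adjusted p of 0.264. A missing call does not show that the activities act alike.

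Against the livers 6 h after 1.7 kBq, again no transcript was higher and 1 lower, the same probe (-1.38, limma adjusted p = 0.00175; 1552 probes with an unadjusted p under 0.05). The number was 0 without exposed replicate 1 or 3 or without 6 h replicate 2 or 3, 3 without exposed replicate 2 and 4 without 6 h replicate 1. Hsph1 was at 10.59, 9.51 and 9.25 at 6 h, and the difference of 1.03 had a 95% interval of 0.43 to 1.64 (limma adjusted p = 0.338). Ifit3 was at 8.23, 8.93 and 8.98 at 6 h, or lower at 1 h by -1.01 (-1.34 to -0.67, limma adjusted p = 0.0378). Mfsd2a differed by 0.52 (0.25 to 0.78, limma adjusted p = 0.258) and Dbp by -0.20 (-0.95 to 0.54).

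**Figure D5:**
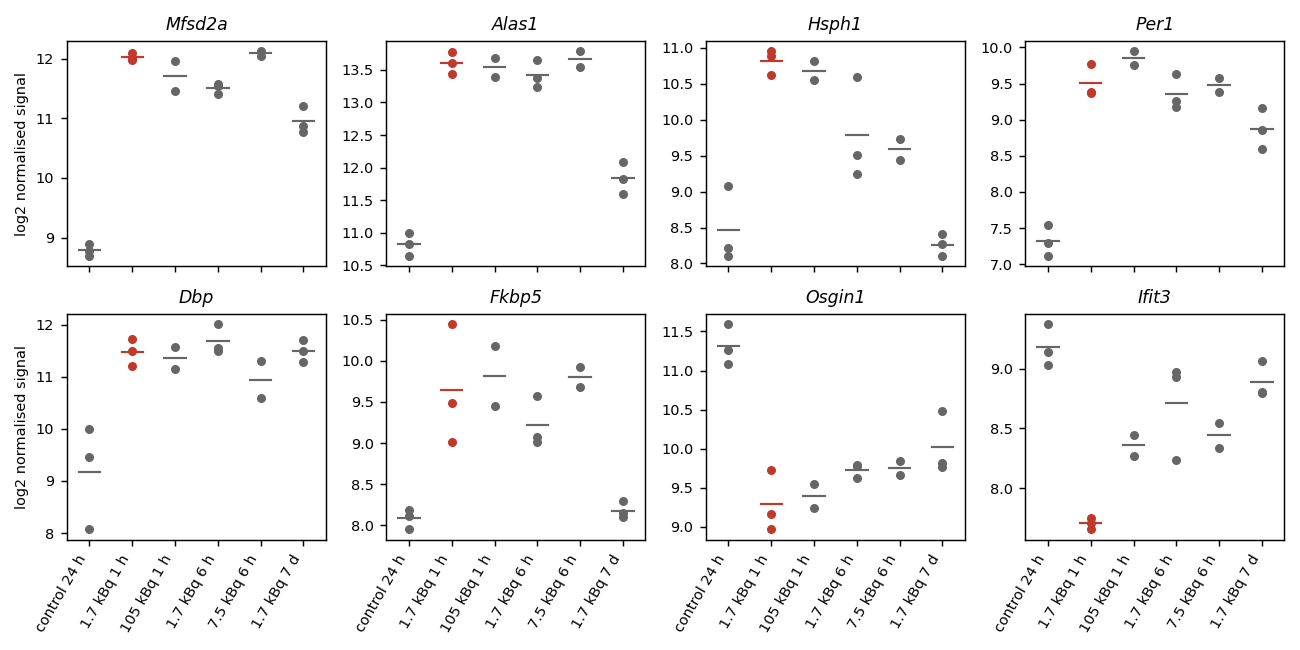
Log2 normalised signal of 8 genes in the 6 liver groups, with 1 point per array, bars for the group means and the 1.7 kBq 1 h group in red. Vertical axes differ between panels and do not start at 0. The Dbp values at 7 days, 11.28 to 11.71, lie within the range of the other exposed groups, while those of Fkbp5 at 7 days, 8.10 to 8.29, lie next to the controls at 7.95 to 8.19.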

How the data were processed

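Livers were excised and flash-frozen, and total RNA was hybridised to Illumina MouseRef-8 arrays. Per the methods, image analysis, preprocessing and quantile normalisation were done by the authors with Illumina software and BASE, followed by Nexus Expression 2.0. The methods state technical triplicates, and the deposited table holds 1 column of linear signal intensity per mouse and tissue, neither centred nor background-subtracted to 0. A table of non-normalised signals was not used here, because no label ties its column names to samples.

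Log2 intensities were analysed with limma 3.58.1 in R 4.3.3, in 1 fit of 16 liver arrays with 6 group means. The background cutoff was the mode of the signals (106.4) plus 2.33 SD of the values below it, or 117.7. The adjustment of Benjamini and Hochberg covered all 17816 kept probes, and transcripts were called at an adjusted p under 0.01 and at least 1.5-fold, the thresholds of the methods, which name no test. The liver was tested against other tissues in 1 fit of 80 arrays. A gene list counts 1 probe per gene, the kept probe with the highest mean signal in the liver. Lists were described by counts and medians, with no set test. Named genes were the 10 with the largest rise and the 10 with the largest fall among called genes whose groups do not overlap, 1 probe a gene, up to 5 called members of each list (and up to 2 others where fewer than 2 were called), genes the paper names and the 3 with the largest difference in each direction of each direct comparison. Other named genes, including further list members, were chosen after their values were seen. Mup4, which the paper names, has no probe of that name. Members and lists were chosen with earlier results of these data known.

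Alternatives were no filter or a filter on mean signal, background subtraction, cyclic loess, a robust variance trend, only the groups compared, the replicate number as a block, and leaving out each array. The limma fit was tested on simulated data. P-values rest on the spread between mice within groups, pooled over the 6 liver groups in the fit of 16 liver arrays. For the test of liver against other tissues, this spread was pooled over the 30 groups in the fit of 80 arrays. Where only the groups compared were fitted, it came from those groups alone. The number of arrays limits the precision. Symbols came from RefSeq tables for 23978 of 25697 probes. Promoter sequences are those of RefSeq, GRCm38.p6.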

Additional observations from a re-analysis of the deposited data

Results flagged for a closer look

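The change in the liver differed from the mean change in the other tissues for 69 transcripts in limma's test of that difference. Differences are given as liver minus other tissues on the log2 scale. Among genes with a symbol that were regulated in the liver and significant in this test, the largest were Mfsd2a (2.52), Alas1 (2.28) and St3gal5 (2.05). In the other direction they were Osgin1 (-2.30), Rnf125 (-1.88 and -1.80 on its 2 called probes) and Depp1 (-1.81). Thrsp differed by 2.23 without passing (limma adjusted p = 0.0828). The probe ILMN_2666279, which has no gene name here, differed by -2.26.

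In the direct comparisons, 1 transcript differed between 1.7 and 105 kBq at 1 h and 1 between 1 h and 6 h at 1.7 kBq. Both were the probe ILMN_1255416, with differences of -1.39 and -1.38, and it was low in the 3 livers 1 h after 1.7 kBq and in no other liver group: the remaining 13 liver arrays lay between 9.17 and 10.04.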

How the results depend on the processing

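Leaving out each array in turn gave 105 to 218 regulated transcripts (78 to 130 higher, 25 to 88 lower), against 223 (137 and 86). Background subtraction gave 128 (91 higher, 37 lower), of which 101 were among the 223, and fitting only the groups compared gave 136 (41 lower), of which 122 were. For the difference between liver and other tissues, the counts were 39 to 72 with an array left out (25 to 41 higher, 14 to 42 lower) and 130 (73 and 57) with only the groups compared. The comparison with 105 kBq gave 0 to 2 (higher 0 to 1, lower 0 to 1) with an array left out, and 0 with no filter, with background subtraction and with only the groups compared. That with 6 h gave 0 to 4 (higher 0 to 2, lower 0 to 3), and 0 with background subtraction and with only the groups compared. The causes were not tested, except that fewer arrays or fewer degrees of freedom enter some fits. Of 80 called probes of named genes, with 2 for Rnf125, 43 held with any 1 array left out and 37 under every other alternative. Some values near 0 reversed in sign without 1 array: Insig1 (range over arrays left out -0.194 to 0.00503), Mdm2 (-0.0145 to 0.104) and the medians of the acute phase list (-0.435 to 0.00614), each without control replicate 1, of the bile acid list (-0.144 to 0.0128) without exposed replicate 1 and of 2 adipose markers (-0.0245 to 0.103) without exposed replicate 2. Background subtraction raised the log2 changes of low genes, from 2.36 to 4.10 for Usp2 and from 2.19 to 3.23 for Per1.

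Exposed and control livers share replicate numbers, but no source pairs the mice. Deviations of same-numbered arrays correlated with r = 0.23, -0.04 and 0.18 across probes. With replicate number as a block, 233 transcripts were regulated (211 among the 223), 0 differed from 105 kBq, 1 from 6 h and 70 between liver and other tissues.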

Other observations

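The further regulated genes given here were chosen after their values were seen. Slc25a25, a calcium-regulated carrier of ATP in mitochondria, rose 3.31-fold (limma adjusted p = 6.57e-05), from signals of 9.41 to 10.01 in control livers to 11.18 to 11.84 in exposed livers. Plin5, a coat protein of lipid droplets, rose 2.98-fold and Apoa5, an apolipoprotein that lowers plasma triglycerides, 1.82-fold (limma adjusted p of 0.000225 and 0.00119). The transcription factors Cebpb and Crem rose 2.32-fold and 1.83-fold (limma adjusted p of 5.27e-05 and 0.000553), and Slc38a2, an amino acid transporter, 2.21-fold (limma adjusted p = 0.000338). These calls held with any 1 of the 6 arrays left out.

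Among further falls, Irgm2, an immunity-related GTPase, fell 2.02-fold (limma adjusted p = 0.000859), Dnmt3b, a DNA methyltransferase, 1.86-fold (limma adjusted p = 0.000441) and Esr1, the estrogen receptor, 1.60-fold (limma adjusted p = 0.00151), and these calls also held with any 1 array left out. Dnmt3b was at 8.25 to 8.51 in control and 7.36 to 7.68 in exposed livers. Dnmt3b and Esr1 fell more in the liver than in the other tissues, with differences of -0.80 and -0.72 (limma adjusted p of 0.000217 and 0.00495).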
